A study of Mus musculus with 6 samples.

Results

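Heat shock proteins and chaperonins keep other proteins folded. They were represented by the genes whose symbols name an HSP70, HSP110, HSP90 or small heat shock protein, the mitochondrial chaperonin, a DNAJA, DNAJB or DNAJC co-chaperone, or a numbered subunit of the cytosolic chaperonin CCT. Of 81 such symbols in the deposited table, 67 reached an FPKM of 1 in at least 3 of the 6 libraries. The unit, FPKM, divides the fragments of a gene by its length and by the size of the library. These 67 were among the 11817 genes tested of 24083 in all.

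The libraries held polyadenylated RNA of mouse embryonic stem cells, 3 with the R153A form of NANOG and 3 with wild-type NANOG (WT). NANOG binds DNA and helps to maintain pluripotency. WDR5, named in the title of the study, is a scaffold of histone methyltransferases. All cells were grown on gelatin in serum medium with LIF under normal culture. How R153A was introduced is not stated in the labels, nor is the number of clones. Nothing says that the replicates were cultured apart, so p-values measure the spread between these libraries, which may be technical.

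HSP70 proteins bind exposed hydrophobic stretches of a client and release them through cycles of ATP hydrolysis. DNAJ proteins bring clients to HSP70 and start the hydrolysis, HSP110 proteins exchange the nucleotide, and HSP90 proteins take over clients near their folded state. Chaperonins are ring-shaped chambers, CCT in the cytosol for actin, tubulin and others, and HSPD1 with its lid HSPE1 in mitochondria. In heat shock, HSF1 induces the cytosolic genes through heat shock elements, and the unfolded protein response of the endoplasmic reticulum (ER) induces ER chaperones through ER stress response elements.

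Promoter windows are shown for members with matches to the letters of these elements. The windows run from 250 bases before to 50 after the gene start in RefSeq on GRCm38.p6, which is another build than the mm9 of the study, and 54 of the 67 genes had one. The heat shock element was searched as GAA, TTC and GAA, each 2 bases apart. The ER stress response element was searched as CCAAT and CCACG, 9 bases apart. Both strands were read. Capitals mark the matches.
Hspe1: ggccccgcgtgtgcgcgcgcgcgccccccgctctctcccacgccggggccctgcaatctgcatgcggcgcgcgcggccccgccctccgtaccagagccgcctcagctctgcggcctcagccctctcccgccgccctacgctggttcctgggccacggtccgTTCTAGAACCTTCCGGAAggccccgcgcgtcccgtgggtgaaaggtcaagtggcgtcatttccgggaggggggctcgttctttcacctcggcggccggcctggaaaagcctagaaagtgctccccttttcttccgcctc
Hsph1: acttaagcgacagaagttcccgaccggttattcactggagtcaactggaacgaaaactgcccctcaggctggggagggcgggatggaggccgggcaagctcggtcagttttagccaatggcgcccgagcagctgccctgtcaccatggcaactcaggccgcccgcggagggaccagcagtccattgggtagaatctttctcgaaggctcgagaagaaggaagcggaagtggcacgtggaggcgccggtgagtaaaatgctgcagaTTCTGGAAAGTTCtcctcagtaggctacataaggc
Dnajb6: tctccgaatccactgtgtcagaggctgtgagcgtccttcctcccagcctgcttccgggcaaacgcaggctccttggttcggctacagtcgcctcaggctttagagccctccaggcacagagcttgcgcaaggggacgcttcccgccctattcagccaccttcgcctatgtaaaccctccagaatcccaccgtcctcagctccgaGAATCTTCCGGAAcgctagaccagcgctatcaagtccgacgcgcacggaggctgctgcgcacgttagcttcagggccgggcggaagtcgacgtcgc
Hspa5: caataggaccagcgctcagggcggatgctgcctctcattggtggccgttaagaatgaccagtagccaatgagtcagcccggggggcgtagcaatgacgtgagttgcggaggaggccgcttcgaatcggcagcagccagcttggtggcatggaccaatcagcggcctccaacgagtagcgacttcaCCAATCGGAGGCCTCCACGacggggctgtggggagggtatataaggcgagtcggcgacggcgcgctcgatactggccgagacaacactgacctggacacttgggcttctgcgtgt
Hsp90b1: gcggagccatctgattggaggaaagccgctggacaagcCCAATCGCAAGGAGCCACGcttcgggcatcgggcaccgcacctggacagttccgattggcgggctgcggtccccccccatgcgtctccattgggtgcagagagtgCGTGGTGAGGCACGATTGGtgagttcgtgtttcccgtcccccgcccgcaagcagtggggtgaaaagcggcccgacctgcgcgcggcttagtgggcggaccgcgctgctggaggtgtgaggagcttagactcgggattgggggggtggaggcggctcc
Dnajc3: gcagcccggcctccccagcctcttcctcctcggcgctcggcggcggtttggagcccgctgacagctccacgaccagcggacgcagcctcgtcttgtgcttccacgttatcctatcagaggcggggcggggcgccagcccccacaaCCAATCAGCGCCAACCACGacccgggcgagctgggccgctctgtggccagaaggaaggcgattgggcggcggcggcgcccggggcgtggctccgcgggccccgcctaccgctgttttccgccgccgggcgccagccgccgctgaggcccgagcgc
The windows lie at chr1:55087898-55088197 on the plus strand (Hspe1), chr5:149636266-149636565 on the minus strand (Hsph1), chr5:29735648-29735947 on the plus strand (Dnajb6), chr2:34771840-34772139 on the plus strand (Hspa5), chr10:86705395-86705694 on the minus strand (Hsp90b1) and chr14:118937682-118937981 on the plus strand (Dnajc3).

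A heat shock element was found in the windows of 4 genes, Hspe1, Hspd1, Hsph1 and Dnajb6, that is 7.41% of the 54, compared with 0.662% of 27025 genes with a window. Hspe1 and Hspd1 are transcribed away from each other, and the capitals in the Hspe1 window are a pair of overlapping matches, the first 89 bases before the Hspe1 start, that the Hspd1 window holds as well. In the windows shown, the match of Dnajb6 began 46 bases before the gene start and that of Hsph1 15 bases after the gene start. The ER stress response element was found in 3 genes (5.56%), against 0.137% of all genes, with 2 matches in the Hsp90b1 window that do not overlap. A match is a description of letters, and genes without one may carry other forms or carry them elsewhere.

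The 2 groups were well separated as a whole, with Pearson correlations of 0.995 to 0.996 within groups and 0.947 to 0.950 between them. These are correlations across genes, which are no replicates. FPKM summed to 372761 to 382086 in R153A and 360152 to 381782 in WT libraries, and the depth was unknown because no counts were given. Nanog mRNA was at 119, 122 and 129 FPKM in the R153A libraries, against 241, 259 and 258 FPKM in the WT libraries. Wdr5 was at 42.2, 40.9 and 42.8 FPKM in the R153A libraries, against 64.0, 64.7 and 67.1 FPKM in the WT libraries. Neither level checks the R153A change itself. All 12 stem cell markers listed passed the filter. In R153A, 9 were lower, 1 higher and 2 not called (background 22.3% lower and 37.5% higher). Their median log2 fold change was -0.70, with a range from -2.12 for Esrrb to 1.17 for Lin28a, the higher gene. Pou5f1 was at 518 ± 8.84 FPKM in R153A cells, against 688 ± 16.6 FPKM in WT cells (SD, n = 3 each here and below). The 12 fibroblast and feeder markers summed to 11.8 to 12.3 FPKM in R153A and 6.96 to 9.34 FPKM in WT libraries. Of these, 4 were tested, 2 were higher in R153A and none fell (background 37.5% higher and 22.3% lower). Under median-ratio scaling and quantile normalization 1 was lower. Col1a2, 1 of the 2 higher genes, passed the filter only through R153A and so had to differ. Lum was listed at 0 in the 3 WT libraries and in R153A replicate 3, and at 0.0637 and 0.0456 FPKM in R153A replicates 1 and 2. The part of these markers in the results was not tested.

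In R153A cells 41 of the 67 genes (61.2%) were called by limma against WT (adjusted p under 0.05), beside a background of 59.8% of all genes tested. The groups did not overlap for 45 genes, or 67.2%, beside 65.0% of all genes. There were 20 higher genes (29.9%, background 37.5%) and 21 lower genes (31.3%, background 22.3%). Changes of at least 2-fold on the log2(FPKM + 1) scale were made by 2 of the 67, or 2.99%, against a background of 8.29%. Both of these, Dnajb13 and Dnajc6, passed the filter through WT alone. The share called was near the background, so it is no result about chaperones. Among the 67, 4 passed the filter through 1 group alone and had to differ (Dnajb13 and Dnajc6 through WT, Dnajb3 and Hspa12a through R153A). The other 63 held 18 higher and 19 lower genes (28.6% and 30.2%), against 35.1% and 22.3% of all genes with an FPKM of 1 in both groups. The median log2 fold change of the 67 was 0.0075, beside 0.071 for all genes tested. Under median-ratio scaling the members split into 17 higher and 26 lower, and under quantile normalization, which moved the fold changes of all genes by a median of -0.10, into 14 higher and 24 lower. Higher genes made up 48.8% of member calls as deposited, 39.5% under median-ratio scaling and 36.8% under quantile normalization. For all genes called, these shares also moved, from 62.7% to 53.7% and 47.4%.

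**Figure D1:**
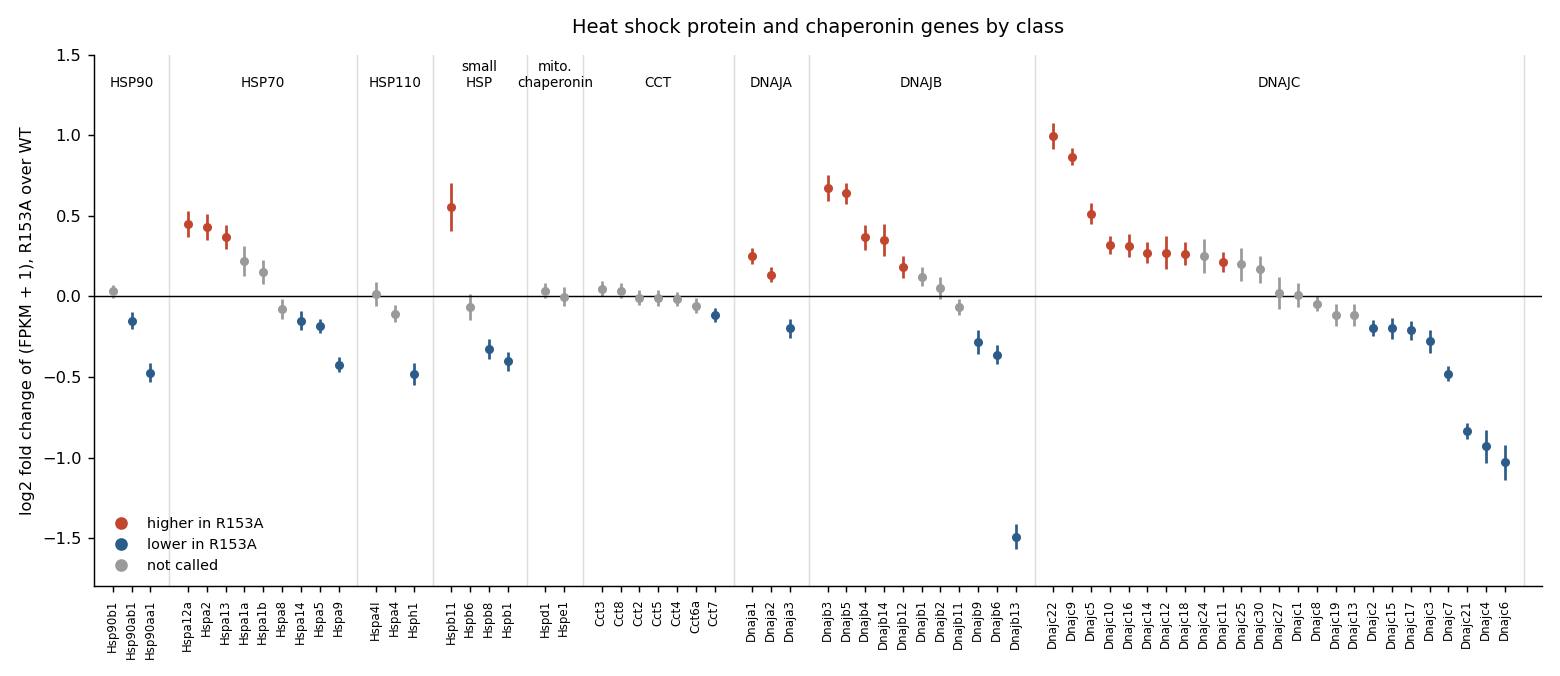
Log2 fold change of (FPKM + 1), R153A over WT, for the 67 genes grouped by class. Points are limma estimates with SE bars from 3 libraries per group, coloured by the call at an adjusted p under 0.05. CCT and mitochondrial chaperonin genes lie near 0 while DNAJC genes spread from -1.03 to 0.998.

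The levels of chaperone mRNA were dominated by few genes. Hsp90aa1, Hsp90ab1 and Hspa8 together made up 48.2 to 48.6% of the summed FPKM of the 67 in R153A libraries and 49.6 to 51.4% in WT libraries. The sum over the 67 was 7789 to 8011 FPKM in R153A libraries, below 8568 to 9223 FPKM in WT libraries. As a share of all FPKM it was 2.09 to 2.14% in R153A and 2.24 to 2.50% in WT libraries, so the groups did not overlap on either scale. In bulk RNA, fewer cells of a type and less RNA per cell cannot be told apart. Of the 18 genes with a mean of at least 100 FPKM, 6 were lower in R153A, 12 were not called and none was higher. Called genes thus made up 33.3% of them, against 50.1% of all 553 genes at that level, with 24.6% of those lower and 25.5% higher. Under median-ratio scaling 9 of the 18 were lower and under quantile normalization 5, with none higher in either. The 29 genes with a mean under 10 FPKM held 13 higher and 6 lower genes (44.8% and 20.7%), near the 40.7% and 20.0% of all genes at that level.

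HSP90 genes were the most abundant, and the heat-inducible form fell furthest. Hsp90aa1, the stress-inducible cytosolic HSP90, was at 1013, 1055 and 1030.3 FPKM in the R153A libraries, against 1434, 1535 and 1344 FPKM in the WT libraries. All 3 R153A libraries lay below all 3 WT libraries, with a 1.39-fold lower mean (log2 fold change -0.47, SE 0.0590, limma adjusted p = 3.9e-05). Hsp90ab1, the constitutive cytosolic form, was at 1479, 1521 and 1501 FPKM in the R153A libraries, against 1651, 1719.6 and 1623 FPKM in the WT libraries. The groups did not overlap and the mean was 1.11-fold lower (log2 fold change -0.15, SE 0.0514, limma adjusted p = 0.027). This smaller change lost its call without R153A replicate 1, 2 or 3 (limma adjusted p = 0.1, 0.07 and 0.11), without WT replicate 1 or 2 (0.057 and 0.052), with no filter (0.14) and under quantile normalization (0.1). The ratio of Hsp90aa1 to Hsp90ab1 FPKM was 0.685 to 0.694 in R153A libraries and 0.828 to 0.893 in WT libraries. Hsp90b1, the ER form also called GRP94, was at 179, 182 and 179.8 FPKM in the R153A libraries, against 178, 176 and 175 FPKM in the WT libraries. The R153A values lay just above the WT values, but the difference was not called (log2 fold change 0.03, 95% interval -0.06 to 0.12, limma adjusted p = 0.53), and its sign turned under median-ratio scaling (-0.03).

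Of 9 HSP70 genes, 3 were higher, 3 lower and 3 not called (background 37.5% higher and 22.3% lower). Hspa9, the mitochondrial HSP70 mortalin, was at 206, 219.9 and 213 FPKM in the R153A libraries, against 283, 298 and 276 FPKM in the WT libraries. Every R153A library was lower, with a 1.34-fold lower mean (log2 fold change -0.42, SE 0.0493, limma adjusted p = 2.3e-05). Hspa5, the ER HSP70 known as BiP, was at 141, 139 and 143 FPKM in the R153A libraries, against 159, 164 and 158 FPKM in the WT libraries. Its groups did not overlap, and the R153A mean was 1.14-fold lower (log2 fold change -0.18, SE 0.0429, limma adjusted p = 0.0036). Hspa8, the constitutive cytosolic HSC70, was at 1271, 1319 and 1311 FPKM in the R153A libraries, against 1354, 1488 and 1283 FPKM in the WT libraries. Its groups overlapped and it was not called (log2 fold change -0.08, 95% interval -0.21 to 0.06, limma adjusted p = 0.3). Without WT replicate 3 the fall of Hspa8 was called (limma adjusted p = 0.038), and under quantile normalization its sign turned (0.03); the adjusted p ranged from 0.038 to 0.76 over the alternatives. Hspa14, the HSP70 of the ribosome-associated complex, was at 54.3, 53.5 and 54.8 FPKM in the R153A libraries, against 56.0, 65.5 and 59.5 FPKM in the WT libraries. It was called lower with groups that did not overlap (log2 fold change -0.15, limma adjusted p = 0.045), a call lost when any library but WT replicate 1 was left out (limma adjusted p from 0.054 to 0.11), with no filter (0.15) and without a trend (0.086).

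The weakly expressed HSP70 genes were higher in R153A cells or not called. Hspa13, a microsomal HSP70, was at 4.14, 4.22 and 4.02 FPKM in the R153A libraries, against 2.76, 3.06 and 3.10 FPKM in the WT libraries, 1.39-fold higher on average and with no overlap (log2 fold change 0.37, limma adjusted p = 0.001). Hspa2, known for its role in male germ cells, was at 2.31, 2.68 and 2.75 FPKM in the R153A libraries, against 1.56, 1.65 and 1.76 FPKM in the WT libraries. There was no overlap, and the R153A mean was 1.56-fold higher (log2 fold change 0.43, limma adjusted p = 0.00087). Hspa12a, a divergent HSP70, was at 1.16, 1.17 and 1.04 FPKM in the R153A libraries, against 0.550, 0.551 and 0.560 FPKM in the WT libraries. It passed the filter only through R153A, and its call ended under quantile normalization (log2 fold change 0.45, limma adjusted p = 0.00046 as deposited, adjusted p = 0.32 there, range 9.8e-05 to 0.32 over the alternatives). The classical heat-inducible genes Hspa1a and Hspa1b stayed at a few FPKM in both groups. Hspa1a was at 2.14, 1.92 and 1.55 FPKM in the R153A libraries, against 1.45, 1.36 and 1.57 FPKM in the WT libraries. Hspa1b was at 3.06, 2.69 and 2.74 FPKM in the R153A libraries, against 2.38, 2.53 and 2.41 FPKM in the WT libraries. Neither was called (log2 fold change 0.22, 95% interval 0.01 to 0.42, limma adjusted p = 0.062 for Hspa1a and log2 fold change 0.15, 95% interval -0.01 to 0.32, limma adjusted p = 0.099 for Hspa1b). The Hspa1a difference was called without R153A replicate 3 (0.02) and without a trend (0.044), and both signs turned under quantile normalization (0.98 and 0.55 as adjusted p). These genes share 58.8% of the 50-base words of the Hspa1a transcript in GENCODE M21, so their separate values are uncertain.

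Among HSP110 genes, Hsph1, the heat-inducible HSP105 whose window above carries a heat shock element, was at 31.7, 29.6 and 31.3 FPKM in the R153A libraries, against 40.7, 48.7 and 41.7 FPKM in the WT libraries. All R153A values lay under all WT values, with a 1.42-fold lower mean (log2 fold change -0.48, SE 0.0679, limma adjusted p = 9.9e-05). Hspa4, the constitutive APG2, was at 105, 105 and 106 FPKM in the R153A libraries, against 109.8, 122 and 109 FPKM in the WT libraries. These values do not overlap, but the difference was not called (log2 fold change -0.11, 95% interval -0.22 to 0.01, limma adjusted p = 0.095). It was called lower under median-ratio scaling (0.0078) and without WT replicate 3 (0.045). Hspa4l was at 2.18, 2.28 and 2.34 FPKM in the R153A libraries, against 2.23, 2.25 and 2.22 FPKM in the WT libraries. The groups overlapped (log2 fold change 0.02, 95% interval -0.14 to 0.17, limma adjusted p = 0.86), and it was called lower only under quantile normalization (-0.20, adjusted p = 0.027, range 0.027 to 1 over the alternatives).

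Small heat shock proteins hold unfolding clients without using ATP. Hspb1, known as HSP25 in mouse, was at 270.3, 265 and 269 FPKM in the R153A libraries, against 325, 366 and 375 FPKM in the WT libraries. The R153A libraries were close to each other and all lower, with a 1.33-fold lower mean (log2 fold change -0.40, SE 0.0576, limma adjusted p = 0.00011). Hspb8, which works with the co-chaperone BAG3 in clearing damaged proteins, was at 19.6, 19.7 and 19.5 FPKM in the R153A libraries, against 22.9, 24.8 and 26.8 FPKM in the WT libraries. All R153A libraries lay on the same side of WT, and the mean was 1.27-fold lower (log2 fold change -0.33, SE 0.0609, limma adjusted p = 0.0008). Hspb11, an intraflagellar transport protein named with this family, went the other way, at 7.97, 6.85 and 8.55 FPKM in the R153A libraries, against 4.81, 3.71 and 6.73 FPKM in the WT libraries. It was 1.53-fold higher on average with the widest spread of the group (log2 fold change 0.56, SE 0.149, limma adjusted p = 0.0077), and its call ended with no filter on low values (adjusted p = 0.12, range 9.3e-05 to 0.12 over the alternatives). Hspb6 was at 1.41, 1.56 and 1.68 FPKM in the R153A libraries, against 1.58, 1.58 and 1.84 FPKM in the WT libraries and was not called (log2 fold change -0.07, 95% interval -0.25 to 0.12, limma adjusted p = 0.51), except as lower under quantile normalization (adjusted p = 0.0091).

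**Figure D2:**
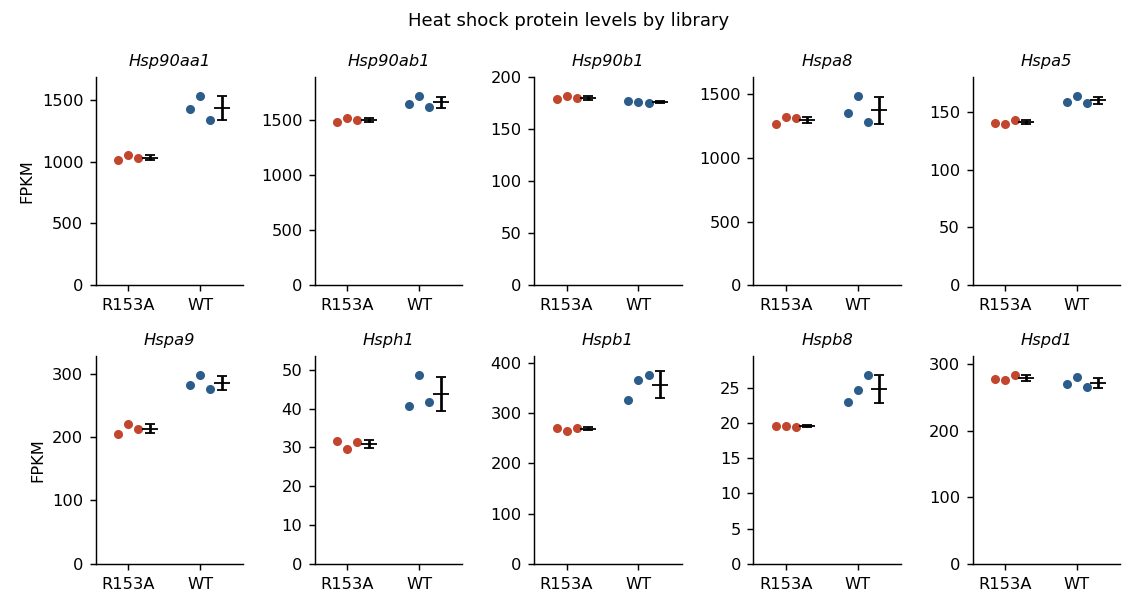
FPKM of 10 heat shock protein genes in the 3 R153A libraries (red) and the 3 WT libraries (blue). Black marks are group means with SD bars, and each panel starts at 0. Hsp90aa1, Hspa5, Hspa9, Hsph1, Hspb1 and Hspb8 show R153A libraries wholly below WT libraries, while Hspa8 and Hspd1 overlap.

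Chaperonin genes had nearly equal levels in both groups. Of the 7 CCT subunit genes in the set, 6 were not called and Cct7 was lower (background 59.8% called). Cct7 was at 211, 216 and 218 FPKM in the R153A libraries, against 231, 238 and 229 FPKM in the WT libraries. Its groups did not overlap, and the R153A mean was 1.08-fold lower (log2 fold change -0.12, SE 0.0436, limma adjusted p = 0.039). That call was lost when R153A replicate 1, 2 or 3 or WT replicate 1 or 2 was left out (limma adjusted p from 0.058 to 0.15), under the replicate block (0.058) and without a trend (0.091). Cct5, the most abundant subunit, was at 279, 294 and 283 FPKM in the R153A libraries, against 280.0, 304 and 279 FPKM in the WT libraries (log2 fold change -0.01, 95% interval -0.12 to 0.10, limma adjusted p = 0.88). Cct4, the lowest of the 7, was at 171, 179 and 177 FPKM in the R153A libraries, against 178, 178 and 176 FPKM in the WT libraries (log2 fold change -0.02, 95% interval -0.11 to 0.08, limma adjusted p = 0.73). Both pairs of groups overlapped. The intervals of Cct2, Cct3, Cct4, Cct5, Cct6a and Cct8 lay between -0.16 and 0.15 on the log2 scale. Cct6a was called lower under median-ratio scaling (-0.12, adjusted p = 0.034). Tcp1, which encodes the remaining subunit of the ring and has another symbol, was at 182, 193 and 187 FPKM in the R153A libraries, against 176, 187 and 178 FPKM in the WT libraries (log2 fold change 0.05, limma adjusted p = 0.34). Cct7 stood below Cct3 in all 3 R153A libraries and above it in all 3 WT libraries. Within a library the lowest of the 8 subunit genes was at 171 to 179 FPKM in R153A and 176 to 178 FPKM in WT libraries and the highest at 279 to 294 FPKM in R153A and 279 to 304 FPKM in WT libraries, with a coefficient of variation of 16.1 to 17.0% in R153A and 16.0 to 17.6% in WT libraries. The testis form Cct6b and Cct8l1 stayed under 1 FPKM in every library.

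**Figure D3:**
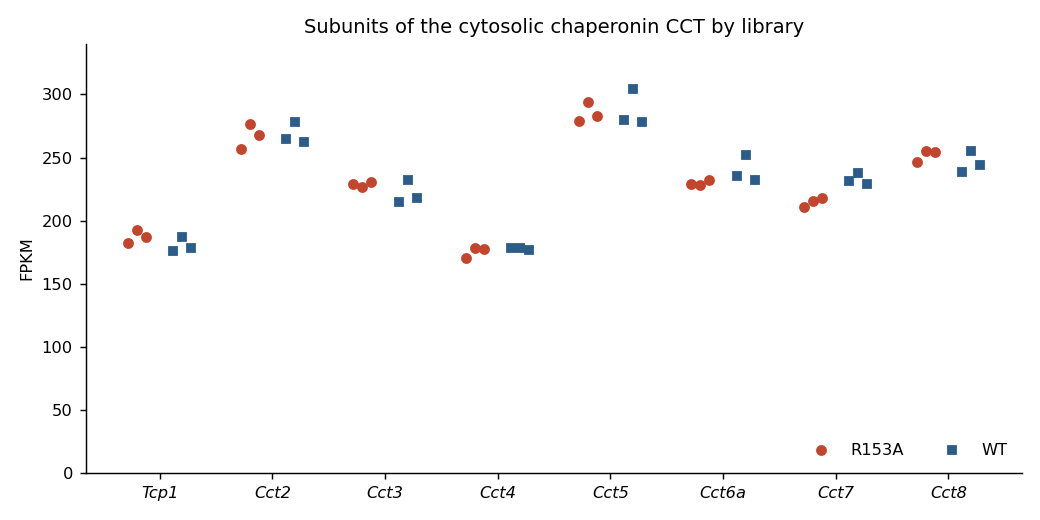
FPKM of the 8 subunit genes of CCT in each R153A library (red circles) and WT library (blue squares). Cct4 and Tcp1 are the lowest and Cct5 the highest in all 6 libraries, Cct5 between 279 and 304 FPKM.

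Neither gene of the mitochondrial chaperonin was called. Hspd1, the HSP60 ring, was at 277, 277 and 284 FPKM in the R153A libraries, against 270.3, 280.3 and 266 FPKM in the WT libraries (log2 fold change 0.04, 95% interval -0.06 to 0.14, limma adjusted p = 0.5). Hspe1, its HSP10 lid, was at 277, 304 and 285 FPKM in the R153A libraries, against 302, 268 and 297 FPKM in the WT libraries (log2 fold change -0.0022, 95% interval -0.13 to 0.13, limma adjusted p = 0.98). Both overlapped, and the ratio of Hspd1 to Hspe1 FPKM was 0.911 to 1.0003 in R153A and 0.893 to 1.04 in WT libraries. Their promoter carries the overlapping heat shock elements shown above. Hsph1 and Dnajb6, the other genes with that element, both fell. Dnajb6, which keeps polyglutamine proteins from aggregating, was at 81.0, 78.1 and 84.3 FPKM in the R153A libraries, against 105, 112 and 96.8 FPKM in the WT libraries. There was no overlap, and the R153A mean was 1.29-fold lower (log2 fold change -0.36, SE 0.0589, limma adjusted p = 0.00029).

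DNAJ co-chaperones spread in both directions: of 39 tested, 16 were higher, 12 lower and 11 not called (background 37.5% higher and 22.3% lower). In the DNAJA class, the partners of HSP70 in general folding, the cytosolic members were higher and the mitochondrial member lower. Dnaja1 was at 46.4, 44.6 and 46.4 FPKM in the R153A libraries, against 37.6, 40.2 and 37.0 FPKM in the WT libraries. All R153A libraries lay on the same side of WT, and the mean was 1.196-fold higher (log2 fold change 0.25, SE 0.0499, limma adjusted p = 0.0011). Dnaja2 was at 60.1, 61.2 and 61.3 FPKM in the R153A libraries, against 55.0, 57.4 and 53.5 FPKM in the WT libraries, with no overlap (log2 fold change 0.14, limma adjusted p = 0.026). The Dnaja2 call ended under median-ratio scaling (0.15), rescaling to TPM (0.072), without a trend (0.062) and without any single library but WT replicate 2 (adjusted p from 0.057 to 0.084). Dnaja3, the mitochondrial TID1, was at 22.2, 23.5 and 24.3 FPKM in the R153A libraries, against 25.2, 27.4 and 28.1 FPKM in the WT libraries, also without overlap (log2 fold change -0.20, limma adjusted p = 0.013), and lost its call without R153A replicate 1 (0.067) and with no filter (0.052).

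In the DNAJB class the largest fall was that of Dnajb13, a component of sperm flagella, at 0.989, 0.817 and 0.889 FPKM in the R153A libraries, against 4.10, 4.57 and 4.33 FPKM in the WT libraries. It passed the filter only through WT and was 4.83-fold lower on average (log2 fold change -1.49, SE 0.0779, limma adjusted p = 4.2e-08). Dnajb5 was at 7.27, 7.19 and 7.32 FPKM in the R153A libraries, against 4.22, 4.38 and 4.31 FPKM in the WT libraries, wholly higher in R153A and 1.69-fold higher (log2 fold change 0.64, SE 0.0628, limma adjusted p = 5.8e-06). Dnajb4 was at 1.83, 1.903 and 1.92 FPKM in the R153A libraries, against 1.27, 1.32 and 1.12 FPKM in the WT libraries, a rise (log2 fold change 0.37, limma adjusted p = 0.0017) not called under quantile normalization (adjusted p = 0.11, range 0.00053 to 0.11 over the alternatives). Dnajb3 passed only through R153A, at 1.66, 1.83 and 1.52 FPKM in the R153A libraries, against 0.696, 0.639 and 0.675 FPKM in the WT libraries (log2 fold change 0.68, limma adjusted p = 2.9e-05). Dnajb14, an ER membrane protein, was at 3.51, 3.37 and 3.40 FPKM in the R153A libraries, against 2.50, 2.99 and 2.00 FPKM in the WT libraries (log2 fold change 0.35, limma adjusted p = 0.011). Dnajb1, the heat-inducible HSP40, was at 20.7, 21.6 and 21.6 FPKM in the R153A libraries, against 19.1, 20.98 and 18.5 FPKM in the WT libraries. The groups overlapped and it was not called (log2 fold change 0.12, 95% interval -0.01 to 0.25, limma adjusted p = 0.094), although it was without WT replicate 2 (0.015). Dnajb2 was not called either (log2 fold change 0.05, 95% interval -0.10 to 0.21, limma adjusted p = 0.52).

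The DNAJC class, whose members tie HSP70 to particular sites and tasks, held 25 genes. Of these, 9 were higher, 8 lower and 8 not called (background 37.5% higher and 22.3% lower). Dnajc22, whose Drosophila counterpart wurst acts in clathrin-dependent endocytosis, was at 5.41, 5.62 and 6.29 FPKM in the R153A libraries, against 2.19, 2.41 and 2.58 FPKM in the WT libraries. No library overlapped, and the mean was 2.41-fold higher (log2 fold change 0.998, SE 0.0800, limma adjusted p = 1.2e-06). Dnajc9, a nuclear co-chaperone of histones, was at 36.8, 36.1 and 37.9 FPKM in the R153A libraries, against 19.3, 19.3 and 20.7 FPKM in the WT libraries, with narrow spreads far apart and a 1.87-fold higher mean (log2 fold change 0.87, SE 0.0512, limma adjusted p = 9.8e-08). Dnajc5, the cysteine string protein of secretory vesicles, was at 25.5, 26.5 and 27.0 FPKM in the R153A libraries, against 17.8, 20.1 and 16.7 FPKM in the WT libraries, again wholly higher and 1.45-fold higher (log2 fold change 0.51, SE 0.0674, limma adjusted p = 5.8e-05). Dnajc21, which in yeast (as Jjj1) acts in maturation of the large ribosomal subunit, was at 40.4, 39.6 and 43.8 FPKM in the R153A libraries, against 74.2, 75.7 and 73.1 FPKM in the WT libraries. All R153A libraries were lower and the mean was 1.80-fold lower (log2 fold change -0.83, SE 0.0508, limma adjusted p = 1.3e-07). Dnajc7, which binds both HSP70 and HSP90, was at 60.02, 56.6 and 59.5 FPKM in the R153A libraries, against 81.1, 84.0 and 81.4 FPKM in the WT libraries. Its groups did not overlap, and the R153A mean was 1.40-fold lower (log2 fold change -0.48, SE 0.0460, limma adjusted p = 4.8e-06). Dnajc4 was at 3.16, 4.40 and 4.51 FPKM in the R153A libraries, against 8.33, 8.83 and 8.34 FPKM in the WT libraries, 2.11-fold lower with the lowest value in R153A replicate 1 (log2 fold change -0.93, SE 0.102, limma adjusted p = 1.4e-05). Dnajc6, the clathrin-uncoating auxilin, passed only through WT, at 0.0276, 0.0306 and 0.323 FPKM in the R153A libraries, against 1.19, 1.27 and 1.38 FPKM in the WT libraries (log2 fold change -1.03, limma adjusted p = 1.1e-05). R153A replicate 3 was the highest of its group, still below every WT library. Dnajc2, which with Hspa14 makes up the ribosome-associated complex, was at 52.7, 54.0 and 55.9 FPKM in the R153A libraries, against 61.7, 64.9 and 60.1 FPKM in the WT libraries (log2 fold change -0.20, limma adjusted p = 0.0051). Dnajc8 and Dnajc17, factors associated with splicing, differed in call. Dnajc8 was at 119 ± 4.37 FPKM in R153A cells, against 123 ± 2.297 FPKM in WT cells and was not called (log2 fold change -0.04, 95% interval -0.15 to 0.06, limma adjusted p = 0.44) except under median-ratio scaling (0.045). Dnajc17 was lower at 8.87 ± 0.314 FPKM in R153A cells, against 10.4 ± 0.2503 FPKM in WT cells (log2 fold change -0.21, limma adjusted p = 0.0097).

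**Figure D4:**
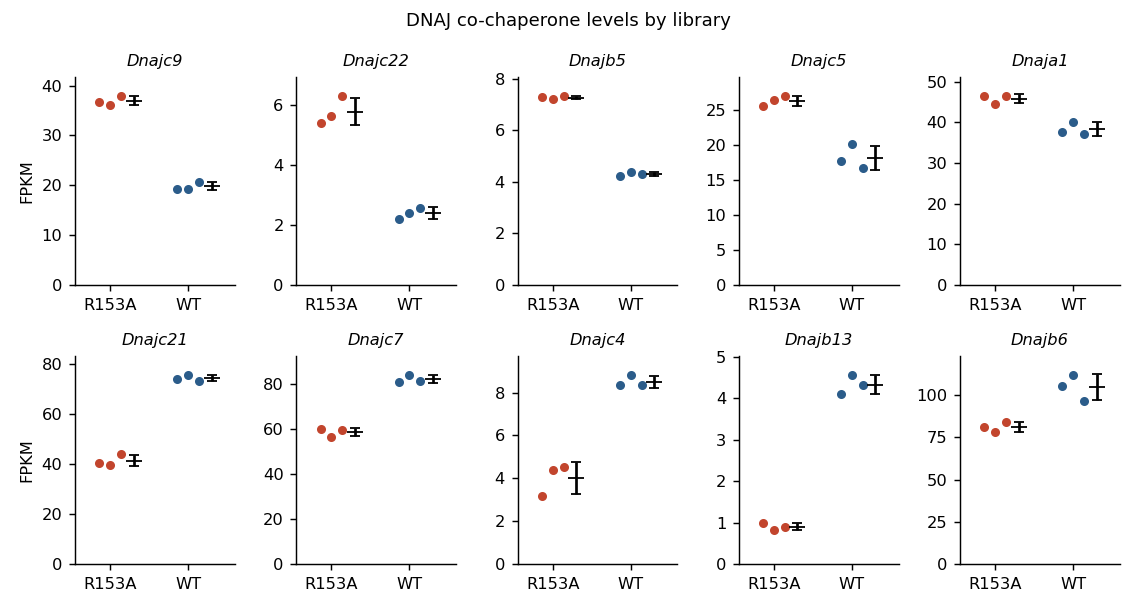
FPKM of 10 DNAJ co-chaperone genes in the 3 R153A libraries (red) and the 3 WT libraries (blue), with group means and SD bars in black and axes from 0. The first 5 panels show R153A libraries above WT libraries and the last 5 show them below, with no overlap in any panel.

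By compartment, the 14 ER members held 7 higher, 3 lower and 4 uncalled genes (background 37.5% higher and 22.3% lower). Their median log2 fold change was 0.19, beside 0.071 for all genes tested. The higher ER genes were Hspa13, Dnajb12, Dnajb14, Dnajc10, Dnajc14, Dnajc16 and Dnajc18. Dnajc10, the ER reductase ERdj5, was the most abundant of these, at 19.8, 20.4 and 21.3 FPKM in the R153A libraries, against 15.7, 17.1 and 16.1 FPKM in the WT libraries. There was no overlap, and the R153A mean was 1.26-fold higher (log2 fold change 0.32, SE 0.0560, limma adjusted p = 0.00054). The lower ones were Hspa5, Dnajb9 and Dnajc3, which the unfolded protein response induces. Dnajb9, ERdj4, was at 4.297, 4.40 and 4.34 FPKM in the R153A libraries, against 4.98, 5.89 and 5.68 FPKM in the WT libraries (log2 fold change -0.28, limma adjusted p = 0.0069). Dnajc3, P58IPK, was at 5.73, 4.96 and 5.65 FPKM in the R153A libraries, against 6.84, 6.83 and 6.74 FPKM in the WT libraries (log2 fold change -0.28, limma adjusted p = 0.0055). Neither overlapped. Under quantile normalization the ER members split evenly, 4 higher and 4 lower. In that setting Dnajb12, Dnajb14 and Dnajc18 lost their calls (adjusted p = 0.25, 0.18 and 0.48) and Dnajc1 was called lower (0.035). Dnajb12 also lost it without WT replicate 1 or 3 or any R153A library (adjusted p from 0.065 to 0.12), under median-ratio scaling (0.11) and rescaling to TPM (0.079), and, as did Dnajb14 (0.085), with no filter (0.11). Dnajb11, ERdj3, was at 25.0, 24.1 and 25.8 FPKM in the R153A libraries, against 26.0, 26.2 and 26.3 FPKM in the WT libraries, just apart, and was called lower only under median-ratio scaling (log2 fold change -0.06, 95% interval -0.17 to 0.04, limma adjusted p = 0.28 as deposited, adjusted p = 0.023 scaled, range 0.023 to 0.58 over the alternatives).

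Of the 9 mitochondrial members, 4 were lower (Hspa9, Dnaja3, Dnajc15 and Dnajc4), 1 higher (Dnajc11) and 4 not called. The background was 22.3% lower and 37.5% higher, and the median log2 fold change of the 9 was -0.11, beside 0.071 for all genes tested. Dnajc11, linked to cristae organisation, was at 31.0, 33.1 and 33.9 FPKM in the R153A libraries, against 26.8, 30.3 and 26.8 FPKM in the WT libraries (log2 fold change 0.21, limma adjusted p = 0.011), a call that ended with no filter (0.063, range 0.0025 to 0.063 over the alternatives). Dnajc15, a cochaperone of the inner-membrane import motor, was at 24.2, 25.6 and 26.0 FPKM in the R153A libraries, against 26.4, 31.0 and 30.2 FPKM in the WT libraries (log2 fold change -0.20, limma adjusted p = 0.022). Without R153A replicate 1 or WT replicate 2 or 3, the Dnajc15 adjusted p was 0.089, 0.078 and 0.059, and with no filter 0.11. Dnajc19, its paralogue in the same motor, was at 39.5 ± 2.87 FPKM in R153A cells, against 42.8 ± 3.33 FPKM in WT cells and was not called (log2 fold change -0.11, 95% interval -0.26 to 0.04, limma adjusted p = 0.18). Exons of Bud23 on the opposite strand cover 26.3% of the exon bases of Dnajc30, and use of strand is not given, so its value (6.79 ± 0.703 FPKM in R153A cells, against 5.93 ± 0.564 FPKM in WT cells) is uncertain. The 31 cytosolic members held 5 higher and 11 lower genes, against the same background, with a median of -0.018. The remaining members were 3 nuclear, 3 vesicle or endosome and 7 unassigned genes. Dnajc12 was the member called with overlapping groups, at 2.17, 1.95 and 1.55 FPKM in the R153A libraries, against 1.56, 1.16 and 1.46 FPKM in the WT libraries (log2 fold change 0.27, limma adjusted p = 0.04), and the call ended in 8 of 15 alternatives, among them without R153A replicate 1 or 2 or WT replicate 2 or 3 (adjusted p from 0.051 to 0.15).

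Among 14 symbols below the filter, 11 did not reach 1 FPKM in any library and Hspb3 was listed at 0 in all 6. The others that did were just outside it. Hspb2 was at 1.23, 1.39 and 0.866 FPKM in the R153A libraries, against 0.212, 0.637 and 0.623 FPKM in the WT libraries. Hspa1l was at 1.05, 0.884 and 0.946 FPKM in the R153A libraries, against 0.469, 0.501 and 0.529 FPKM in the WT libraries, and Dnajc28 at 0.862, 1.099 and 0.788 FPKM in the R153A libraries, against 0.274, 0.346 and 0.368 FPKM in the WT libraries. None of these was tested. Just inside, Hspa12a had no WT library at 1 FPKM. Dnajb13 had no R153A library at 1 FPKM but was well over the filter in WT, at 4.10, 4.57 and 4.33 FPKM.

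The HSF1-induced list of 19 genes moved in both directions. In R153A cells 7 were lower, 4 higher and 8 not called (background 22.3% lower and 37.5% higher). The median log2 fold change of the list was -0.0022, beside 0.071 for all genes tested. The lower genes of the list were Hsph1, Hsp90aa1, Hspb1, Hspb8, Hsp90ab1, Stip1 and Fkbp4, and the higher genes Bag3, Cryab, Dnaja1 and Ahsa1. Bag3, a nucleotide exchange factor and partner of HSPB8, was at 8.09, 9.61 and 9.07 FPKM in the R153A libraries, against 3.13, 3.44 and 3.37 FPKM in the WT libraries, 2.69-fold higher on average (log2 fold change 1.20, SE 0.0766, limma adjusted p = 1.9e-07). Cryab, the small heat shock protein αB-crystallin, was at 2.12, 1.89 and 2.82 FPKM in the R153A libraries, against 0.945, 0.984 and 0.625 FPKM in the WT libraries (log2 fold change 0.82, limma adjusted p = 0.00012) and passed the filter only through R153A. Of the heat shock factors, Hsf1 was at 19.1 ± 0.753 FPKM in R153A cells, against 19.1 ± 1.11 FPKM in WT cells (log2 fold change 0.0015, 95% interval -0.13 to 0.13, limma adjusted p = 0.98), Hsf2 was lower at 12.5 ± 0.379 FPKM in R153A cells, against 16.3 ± 0.270 FPKM in WT cells (log2 fold change -0.37, limma adjusted p = 0.00014), and Hsf4 and Hsf5 were under the filter.

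The ER unfolded protein response list moved mostly down, with 13 of 19 genes lower, 1 higher and 5 not called (background 22.3% lower and 37.5% higher). The median of the list was -0.28, beside 0.071 for all genes tested. Like the other lists, it was chosen with earlier results of these data known. Without the 5 listed genes that are members, 10 of 14 were lower and 1 was higher. Under median-ratio scaling, rescaling to TPM and quantile normalization, 13 or 14 of the 19 were lower and 1 higher. Ddit3, the transcription factor CHOP, was at 17.6, 17.9 and 17.4 FPKM in the R153A libraries, against 46.6, 45.5 and 53.7 FPKM in the WT libraries, 2.75-fold lower (log2 fold change -1.41, SE 0.0641, limma adjusted p = 1.4e-08). Xbp1, the transcription factor that IRE1 activates by splicing, was at 19.3, 18.8 and 19.03 FPKM in the R153A libraries, against 32.3, 34.0 and 34.4 FPKM in the WT libraries, 1.76-fold lower (log2 fold change -0.79, SE 0.0499, limma adjusted p = 1.8e-07). Sdf2l1, which works with ERdj3, was at 12.2, 12.95 and 13.1 FPKM in the R153A libraries, against 23.4, 23.4 and 26.1 FPKM in the WT libraries (log2 fold change -0.88, limma adjusted p = 3.6e-07). All 3 were apart between groups. Edem1, which sends misfolded glycoproteins to degradation, was the higher gene, at 10.9 ± 0.334 FPKM in R153A cells, against 8.47 ± 0.402 FPKM in WT cells (log2 fold change 0.33, limma adjusted p = 0.00073). Hsp90b1, Dnajb11, Pdia6, Manf and Syvn1 were not called.

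**Figure D5:**
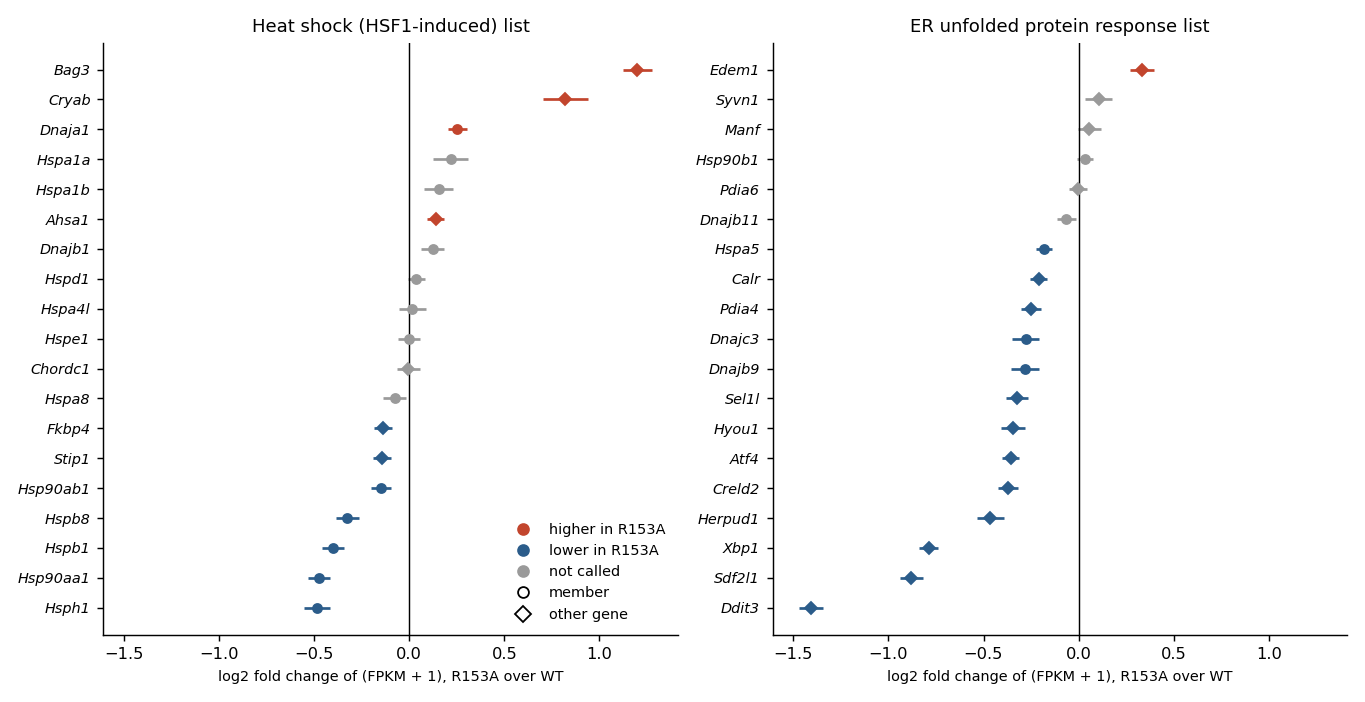
Log2 fold change of (FPKM + 1), R153A over WT, for the 19 HSF1-induced genes (left) and the 19 unfolded protein response genes (right). Circles are heat shock protein and chaperonin genes of the set and diamonds other genes, bars are SE, and colour gives the call. The left list runs from -0.48 for Hsph1 to 1.20 for Bag3, and 13 genes of the right list lie below 0 with a call.

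Co-chaperones outside the set were listed by partner. Of 17 HSP90 co-chaperones, 8 were lower, 3 higher and 6 not called (background 22.3% lower and 37.5% higher). The median of the 17 was -0.11, and under median-ratio scaling 10 were lower and 1 higher. Ppp5c, a phosphatase that binds HSP90, was at 12.9, 14.7 and 14.5 FPKM in the R153A libraries, against 36.9, 38.1 and 41.8 FPKM in the WT libraries, far apart and 2.78-fold lower (log2 fold change -1.41, SE 0.0664, limma adjusted p = 1.8e-08). Fkbp5, an immunophilin of steroid receptor complexes, was at 26.1, 28.1 and 26.0 FPKM in the R153A libraries, against 42.3, 44.4 and 42.2 FPKM in the WT libraries, 1.61-fold lower (log2 fold change -0.66, limma adjusted p = 9.1e-07). Unc45a, a chaperone of myosin, was higher at 12.1 ± 0.445 FPKM in R153A cells, against 8.84 ± 1.02 FPKM in WT cells (log2 fold change 0.42, limma adjusted p = 0.00075). Stip1, which links HSP70 to HSP90, was lower at 171 ± 3.24 FPKM in R153A cells, against 189 ± 6.38 FPKM in WT cells (log2 fold change -0.14, limma adjusted p = 0.018), a call lost without R153A replicate 1 or 3 or WT replicate 1 (adjusted p = 0.079, 0.068 and 0.051), without a trend (0.051) and under quantile normalization (0.053).

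Of 9 listed exchange factors and adaptors of HSP70, 3 were higher, none lower and 6 not called (background 37.5% higher and 22.3% lower). The list left out the HSP110 genes, of which Hsph1 was lower. All 3 higher genes were of the BAG family, but Bag1, Bag4 and Bag6 were not called. Under median-ratio scaling and rescaling to TPM 1 of the 9 was lower. Besides Bag3, the higher genes were Bag2 at 4.75 ± 0.0999 FPKM in R153A cells, against 1.901 ± 0.333 FPKM in WT cells (log2 fold change 0.99, limma adjusted p = 3.4e-06) and Bag5 at 6.48 ± 0.822 FPKM in R153A cells, against 4.43 ± 0.255 FPKM in WT cells (log2 fold change 0.46, limma adjusted p = 0.00092). The 13 listed ER chaperones and folding enzymes outside the set held 4 higher and 5 lower genes, against the same background. The 5 lower genes, Hyou1, Sdf2l1, Calr, Pdia4 and Creld2, were also counted in the unfolded protein response list above. Sdf2, a paralogue of Sdf2l1, went against it, at 21.4, 20.8 and 21.5 FPKM in the R153A libraries, against 12.8, 13.2 and 13.4 FPKM in the WT libraries, 1.62-fold higher (log2 fold change 0.66, limma adjusted p = 9.8e-07). Sec63, a J-domain protein of the ER translocation channel with another symbol, was higher at 10.2 ± 0.314 FPKM in R153A cells, against 7.23 ± 0.128 FPKM in WT cells (log2 fold change 0.45, limma adjusted p = 6.2e-05).

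Prefoldin, which delivers clients to CCT, split into 3 lower, 2 higher and 1 uncalled subunit genes (background 22.3% lower and 37.5% higher). Pfdn1 was lower at 46.3 ± 3.52 FPKM in R153A cells, against 58.8 ± 3.20 FPKM in WT cells (log2 fold change -0.34, limma adjusted p = 0.00071) and Pfdn6 at 105 ± 3.86 FPKM in R153A cells, against 121 ± 4.79 FPKM in WT cells (log2 fold change -0.20, limma adjusted p = 0.0043). Pfdn5 was higher at 62.7 ± 2.56 FPKM in R153A cells, against 54.4 ± 6.66 FPKM in WT cells (log2 fold change 0.21, limma adjusted p = 0.035), with overlapping groups and no call without R153A replicate 1 or 2 or WT replicate 1 or 2 (adjusted p from 0.075 to 0.14), without a trend (0.065), under median-ratio scaling (0.15) or with no filter (0.19). The 4 CCT genes tested outside the set, Tcp1 and the cofactors Pdcl, Pdcl3 and Txndc9, were not called.

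Of 11 other mitochondrial chaperones and proteases, 3 were lower and 8 not called (background 22.3% lower and 37.5% higher). The lower genes numbered 7 under median-ratio scaling, 5 after rescaling to TPM and 6 under quantile normalization, with none higher. Afg3l2, a protease of the inner membrane, was at 28.9, 26.6 and 27.6 FPKM in the R153A libraries, against 35.3, 39.2 and 38.3 FPKM in the WT libraries, 1.36-fold lower (log2 fold change -0.43, limma adjusted p = 6.2e-05). Clpp and Clpx, the peptidase and unfoldase of one protease, were at 41.1 ± 0.446 FPKM in R153A cells, against 45.1 ± 1.31 FPKM in WT cells (log2 fold change -0.13, limma adjusted p = 0.03) and 13.4 ± 0.313 FPKM in R153A cells, against 15.2 ± 1.15 FPKM in WT cells (log2 fold change -0.17, limma adjusted p = 0.034). Both calls ended without R153A replicate 1, 2 or 3 or WT replicate 3, with adjusted p from 0.072 to 0.097 for Clpp and from 0.06 to 0.13 for Clpx. The Clpp call also ended without a trend (0.066) and under the replicate block (0.058), and the Clpx call with no filter (0.086). Trap1, the mitochondrial HSP90, was at 65.3 ± 1.02 FPKM in R153A cells, against 67.3 ± 2.98 FPKM in WT cells (log2 fold change -0.04, 95% interval -0.15 to 0.06, limma adjusted p = 0.47). Grpel1, the exchange factor of mortalin, was at 19.4 ± 0.290 FPKM in R153A cells, against 18.6 ± 1.01 FPKM in WT cells (log2 fold change 0.06, 95% interval -0.06 to 0.18, limma adjusted p = 0.39).

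For 8 of the 67 genes, at least 20% of the 50-base words of the longest transcript also occur in transcripts of other genes in GENCODE M21, and how reads from such copies were assigned is not given. They were Hspa8 (73.2%), Hspa1b (62.3%), Hspa1a (60.4%), Hsp90aa1 (58.5%), Hspb1 (51.7%), Hspd1 (44.8%), Dnajb6 (35.8%) and Hspe1 (36.1%). Their values are uncertain to that extent, and for Hsp90aa1, Hspb1, Hspa8, Hspd1 and Hspe1 none of the copies had a row in the table.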

How the data were processed

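The FPKM values of 24083 symbols in 6 libraries were used as the authors deposited them. The tools that appear in the submitters' processing notes are edgeR 3.26.8, HTSeq 0.11.2, Bowtie2 2.3.4.3 and SAMtools 1.9, with mm9 as the build. Their roles, the use of strand and any filter by the authors have no statement in the labels. No counts were given, so depth is unknown and no count test was run.

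Values were used as deposited, as log2(FPKM + 1), which understates changes of genes with low FPKM. Genes with 1 FPKM or more in at least 3 of 6 libraries were tested, 11817 in all, with limma 3.58.1 in R 4.3.3 (mean-variance trend, two-sided, Benjamini-Hochberg adjustment over all genes tested, called at an adjusted p under 0.05). Folds are ratios of mean FPKM, given where every library reached 0.1 FPKM. The fit was tested on simulated data with 200 changed genes among 11817 for this comparison. It recovered 16%, 80% and 94% of changes of 0.25, 0.5 and 1 on the log2 scale, and 5.88% of its calls were false. In the data 59.8% of the genes tested were called, a far larger share, so these rates need not hold there.

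The members, classes, compartments and gene lists were chosen with earlier results of these data known. The text names Nanog, Wdr5, every tested gene of the classes other than DNAJ, the 4 largest rises and falls and the 2 most abundant genes of each DNAJ class, and up to 3 called genes per list; other genes were named after their values were seen. Alternatives were pseudocounts of 0.1 and 0.5, quantile normalization, rescaling to TPM, median-ratio scaling, no filter or one of 5 FPKM, no trend, robust moderation, the replicate block and leaving out each library. Promoters came from RefSeq on GRCm38.p6 and shared words from GENCODE M21. Figures were drawn with matplotlib 3.10.9.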

Additional observations from a re-analysis of the deposited data

How the results depend on the processing

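Of the 67 genes, 27 kept their call in each of the 16 alternatives in which they were tested (11 higher, 16 lower), 2 stayed uncalled in all, and 38 changed call or sign in at least 1. The count of called genes was 41 as deposited and 33 to 39 with a library left out, 17 to 20 of them higher and 16 to 21 lower, while all genes called numbered 6282 to 6909. Only a filter of 5 FPKM moved one of these counts by over 1.5 times, to 12 higher, since 47 of the 67 genes were then tested. The replicate block gave 41 calls, 21 higher and 20 lower. The deviations of same-numbered libraries correlated weakly, at -0.049, -0.0095 and 0.060. The labels do not say whether same-numbered libraries were paired, and these values cannot settle it. Among the genes named, the replicate block ended the calls of Cct7 and Clpp and called Dnajc24 (log2 fold change 0.25, limma adjusted p = 0.041). Of 480 class and compartment counts under the alternatives, 433 were within 1.5 times of those as deposited.

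Sign changes were seen in 42 values of 19 genes, none of them called as deposited. Quantile normalization gave log2 fold changes of 0.0026 for Cct2, 0.0049 for Cct4, -0.20 for Hspa4l, -0.0027 for Hspa1a, -0.049 for Hspa1b, 0.034 for Hspa8, -0.11 for Dnajb2, -0.18 for Dnajc1, -0.017 for Dnajc25, -0.14 for Dnajc27 and -0.048 for Hsf1. Median-ratio scaling gave log2 fold changes of -0.015 for Cct3, -0.027 for Cct8, -0.028 for Hspa4l, -0.030 for Hsp90b1, -0.026 for Hspd1, -0.040 for Dnajc1, -0.024 for Dnajc27, -0.0077 for Tcp1, -0.058 for Hsf1 and -0.0017 for Grpel1. Rescaling to TPM gave log2 fold changes of -0.0017 for Hspa4l, -0.013 for Dnajc1 and -0.022 for Hsf1. With each library left out in turn, the values ran over -0.032 to 0.021 for Cct2, -0.031 to 0.0018 for Cct4, -0.032 to 0.031 for Cct5, -0.033 to 0.032 for Dnajc1, -0.064 to 0.13 for Dnajc27, -0.034 to 0.044 for Hsf1, -0.00030 to 0.035 for Hspa4l and -0.055 to 0.029 for Hspe1.

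The FPKM table gives no depth, so the precision of weakly expressed genes such as Hspa1a, Hspb6 and Dnajc25 is known only from the 3 libraries per group, and the cause of each changed call was not tested.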
